A study of Mus musculus with 8 samples.

Results

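Retinoid (vitamin A) metabolism was followed through 9 of 41591 gene IDs counted in whole mouse ovaries, with and without a conditional double knockout of Insr and Igf1r, which encode the receptors for insulin and for insulin-like growth factor 1. The 9 genes were Stra6, Crabp2, Retsat, Adh1, Adh7, Rdh10, Dhrs3, Aldh1a1 and Aldh1a2, found in the count tables by gene ID. The set covers retinol uptake, binding, saturation and oxidation, and it was chosen by measured values: the higher counts of Retsat, Adh1 and Adh7 in the knockout. Differences between the genotypes in these 9 genes are therefore given as descriptions and support nothing.

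RNA was sequenced from 8 whole ovaries, 4 controls and 4 double knockouts (DKO). The controls were littermates labelled wild-type and Pgr-Cre positive, which means that they carry a Cre recombinase under control of the progesterone receptor gene Pgr. The DKO were labelled Insr-Igf1r double knockout. All were labelled C57BL/6 females about 3 weeks old. Each received 4 IU of equine chorionic gonadotropin (eCG), then 5 IU of human chorionic gonadotropin (hCG) after 48 h as a substitute for the ovulatory hormone surge, and ovaries were removed 12 h after hCG. Cre under Pgr acts in cells that turn on Pgr, so a whole ovary also holds cells in which no deletion is foreseen. In a whole tissue, fewer cells of a type and less RNA per cell cannot be told apart.

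Retinol reaches cells bound to a carrier and enters through the receptor STRA6. Inside the cell it is stored as esters or oxidised to retinal, a reversible step shared by medium-chain alcohol dehydrogenases (ADH) and short-chain dehydrogenases such as RDH10, with DHRS3 running the reverse reaction. Retinaldehyde dehydrogenases (ALDH1A) then oxidise retinal to retinoic acid, the ligand of the nuclear retinoic acid receptors, which CRABP2 carries to them. RETSAT stands apart: it saturates a double bond of retinol to give dihydroretinol, and it is best known from fat cells, where it is a target of PPAR gamma. In the ovary, retinoic acid is known for its part in the entry of germ cells into meiosis and for effects on granulosa cells.

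Library totals ran from 33145056 to 39257648 counts. Normalised read counts (CPM, counts relative to library size, scaled by TMM factors of 0.943 to 1.06) are used for each gene. The first principal component, 38.3% of the variance, set Control 1, DKO 1 and DKO 2 apart from the other 5 libraries. The numbers in the sample titles, whose meaning the labels do not give, form a lower run in these same 3 libraries and a higher run in Controls 2, 3 and 4 and DKO 3 and 4. The latter are called the 5 higher-numbered libraries. Oviduct epithelium markers, 6 genes, summed to 1285 CPM in Control 1 and 811 CPM in DKO 2, but to 5.10 to 32.8 CPM in the other 6 libraries. Markers of ovarian surface epithelium and mesothelium, 7 genes, were also highest in Control 1 and DKO 2, at 668 and 409 CPM against 106 to 199 CPM elsewhere. Granulosa cell markers, 7 genes, were present in every library, at a sum of 2257 to 3303 CPM. Insr stood at 140 to 162 CPM in controls and 112 to 148 CPM in DKO, and Igf1r at 196 to 263.3 and 200 to 247 CPM. Both ranges overlap, and counts over a whole gene cannot separate a deleted exon. Pgr stood at 2.42 to 6.50 CPM in controls and 1.12 to 2.33 CPM in DKO.

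The beta-globin genes differed between libraries in a way that the strain label C57BL/6 does not give. Laboratory mice mostly carry either the single haplotype, with Hbb-bs and Hbb-bt, as C57BL/6 does, or the diffuse haplotype, with Hbb-b1 and Hbb-b2, as 129 strains do. Hbb-bs was at 0.609 and 1.06 CPM in DKO 1 and DKO 2 and at 105 to 442 CPM elsewhere. Hbb-b1 was at 418 and 880 CPM in DKO 1 and DKO 2, at 156 CPM in Control 1 and 372 CPM in DKO 3, and at 0.707 to 1.12 CPM in Controls 2, 3 and 4 and DKO 4. Genes of the diffuse haplotype were thus counted in 1 of 4 control and 3 of 4 DKO libraries. Hbb-bs lies on chromosome 7, as does the knocked-out gene Igf1r, and 1 locus does not describe the background of the whole genome. The part of strain background in the results below was not tested. Among the 4 libraries with almost no Hbb-b1, DKO 4 is the only knockout, which is too few to compare the genotypes there.

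Per kilobase of exon, the 9 genes spanned a wide range of levels in control ovaries. Aldh1a1 was highest, at 255 ± 76.0 CPM per kb (mean ± SD, n = 4 here and below), above 98.8% of all genes tested. Adh1 followed at 148 ± 11.2 CPM per kb, above 97.9% of genes, and its range over libraries, 136 to 161, did not reach that of Aldh1a1, 197 to 361. Rdh10 (50.2 ± 17.7 CPM per kb) and Crabp2 (47.5 ± 13.2) did not differ beyond their spread. Aldh1a2 (18.6 ± 7.498) and Dhrs3 (17.4 ± 4.19) were likewise within each other's spread. Retsat, at 8.51 ± 0.764 CPM per kb, lay below every control value of Dhrs3 and above every control value of Stra6. Stra6 (4.74 ± 1.58) and Adh7 (4.14 ± 0.903) closed the order and overlapped. The mRNA for a cytosolic ADH and for 1 retinaldehyde dehydrogenase was thus abundant in these ovaries, while the mRNA for the retinol receptor STRA6 was near the middle of all tested genes, above 47.3% of them.

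**Figure D1:**
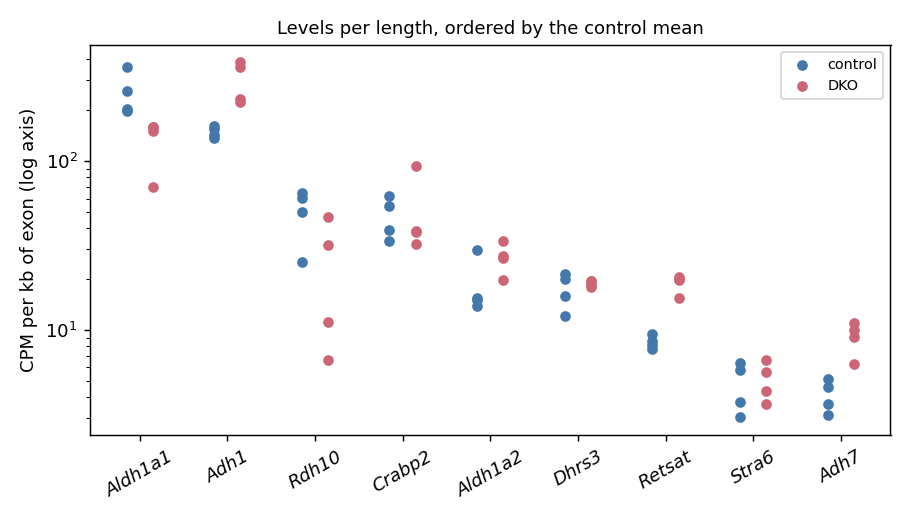
Levels of the 9 genes per kilobase of exon (CPM per kb, log axis) in control and DKO ovaries, 1 point per library, genes ordered by their control mean. Aldh1a1 leads in controls at 255 CPM per kb and Adh1 leads in DKO.

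In DKO ovaries the order at the top was the other way round. Adh1 stood at 223 to 384 CPM per kb and Aldh1a1 at 70.4 to 160, so every DKO library had more Adh1 than Aldh1a1 per kb, where every control library had less. The 9 genes were all tested in the model across 16870 genes (edgeR's quasi-likelihood test). Of the 9, 3 were called higher in DKO and 0 lower, with 0.759% of all tested genes called higher and 0.498% called lower. In 3 of the 9 every DKO value lay above every control, as in 5.7% of tested genes, and in 1 every DKO value lay below, as in 3.54% (9.24% in either direction). The contrast chose these genes, so nothing is read from these counts.

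Retsat (gene ID 67442, chromosome 6, 72598628 to 72607488 in GRCm38.p5) encodes retinol saturase. It was at 16.7, 15.7, 18.4 and 15.04 CPM in Controls 1 to 4 and at 39.0, 39.8, 38.2 and 29.96 CPM in DKO 1 to 4. The lowest DKO value was above the highest control value, and within each genotype the libraries lay close together except for DKO 4. The log2 fold change, DKO over control, was 1.16 ± 0.13 (SE), a 2.23-fold higher mean, with an adjusted p of 0.00931 in edgeR's test. In the 5 higher-numbered libraries alone, which exclude both libraries with high oviduct marker sums, the difference was 1.07 ± 0.17. Oviduct sums there still ran from 5.22 CPM in DKO 3 to 32.8 CPM in Control 4. The call was lost without Control 2, at an adjusted p of 0.0685 in edgeR's test.

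Adh1 (gene ID 11522, chromosome 3, 138277645 to 138290691) encodes the class I alcohol dehydrogenase, which oxidises ethanol and retinol. It was at 182, 214, 189 and 205 CPM in the controls and at 297, 312, 512 and 480 CPM in the DKO. The DKO libraries fell into a lower pair, DKO 1 and DKO 2, and a higher pair, DKO 3 and DKO 4, all above every control. The log2 fold change was 1.02 ± 0.19, with an adjusted p of 0.0374 in edgeR's test. It was 1.31 ± 0.14 within the 5 higher-numbered libraries. The call was lost in 5 of the 8 fits that left out 1 library: those without Control 1, Control 2, Control 4, DKO 3 or DKO 4, with adjusted p values of 0.0532, 0.133, 0.11, 0.103 and 0.0661 in edgeR's test.

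Adh7 (gene ID 11529, chromosome 3, 138198064 to 138232042) encodes the class IV alcohol dehydrogenase, known for high activity with retinol and for expression in the epithelium of the upper digestive tract. It was at 12.1, 14.02, 19.7 and 17.8 CPM in the controls and at 24.2, 34.8, 38.6 and 42.0 CPM in the DKO. The groups did not overlap, although Control 3 and DKO 1 came within a few CPM of each other. The log2 fold change was 1.13 ± 0.20, with an adjusted p of 0.0352 in edgeR's test, and 1.25 ± 0.18 within the 5 higher-numbered libraries. The call was lost without Control 2, Control 4, DKO 2, DKO 3 or DKO 4, at adjusted p values of 0.15, 0.0889, 0.0791, 0.111 and 0.0651 in edgeR's test. Beside Adh7, the 7 markers of stratified or stomach epithelium summed to 2.34 to 4.57 CPM in controls and 2.38 to 3.32 CPM in DKO, and Tff2 and Gkn1 were listed at 0 in all 8 libraries. Only 2 of the 7 were tested, and their part in the Adh7 counts was not tested. Adh1 and Adh7 kept similar proportions, with a per-kb ratio of 27.6 to 44.0 in controls and 25.8 to 38.2 in DKO.

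**Figure D2:**
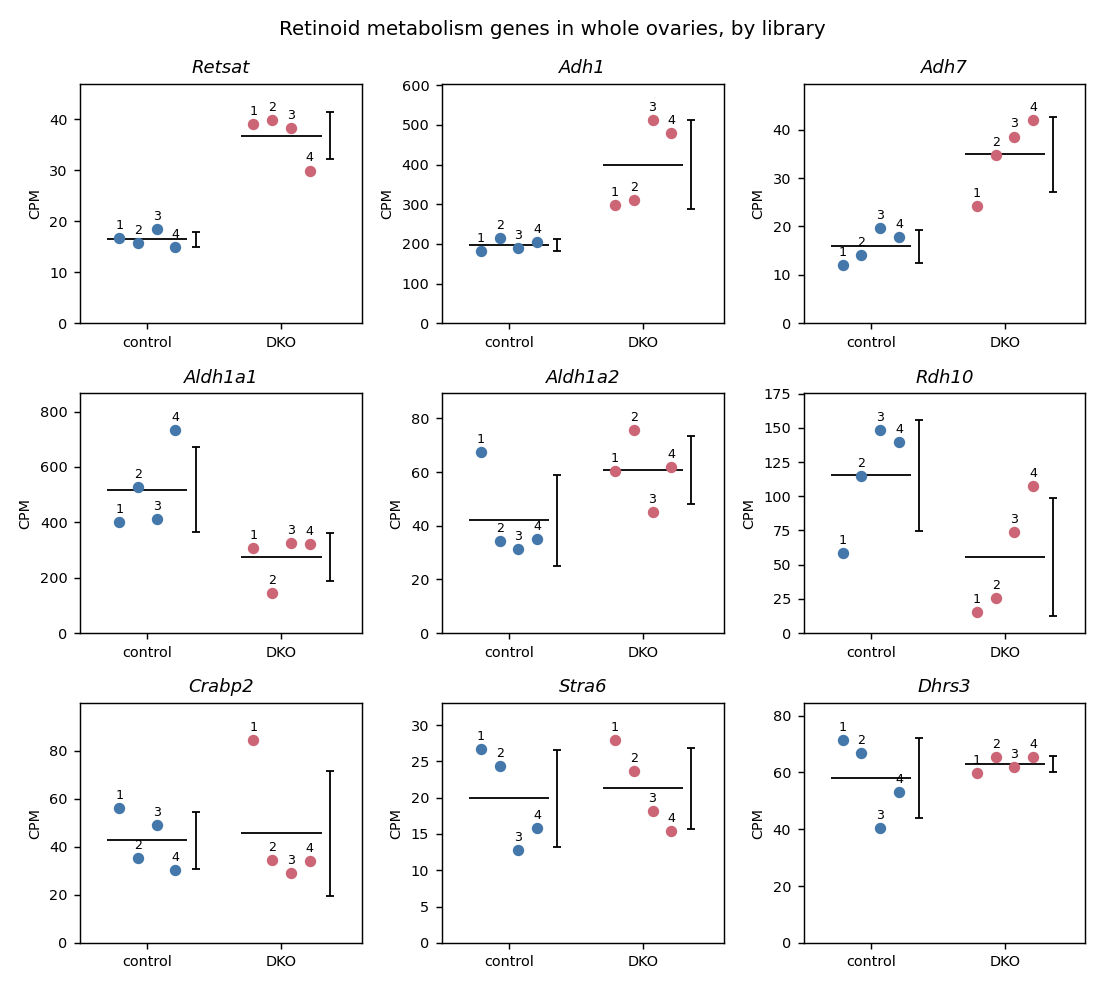
Normalised read counts (CPM) of the 9 retinoid genes in each of the 8 libraries, 1 panel per gene with its own axis; numbers are replicates, horizontal lines are group means and bars are the mean ± SD. The DKO points lie above all controls for Retsat, Adh1 and Adh7, below all controls for Aldh1a1, and overlap the controls for the other 5 genes.

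Fat cell markers were compared beside these 3 genes, since Retsat is strongly expressed in fat. The 7 adipocyte markers summed to 45.4 to 112 CPM in controls and 43.3 to 83.8 CPM in DKO, so the ranges overlap. Of 6 tested, 5 had a log2 fold change below 0, and Plin1, the lipid droplet perilipin, was called higher (10.6 ± 2.50 to 25.2 ± 4.45 CPM, log2 fold change 1.25 ± 0.20, adjusted p = 0.0277, edgeR). Adipoq, which encodes adiponectin, was at 1.87 to 7.82 CPM in controls and 1.15 to 4.62 CPM in DKO, and no fat cell marker was at 0 in every library. Genes listed as luteal cell markers were higher beside Retsat, Adh1 and Adh7 when summed. The 7 genes added up to 7735 to 13569 CPM in controls and 14558 to 18766 CPM in DKO, without overlap. Of the 7, Hsd3b1, a steroid-synthesis enzyme, and Ptgfr, the prostaglandin F receptor, were called higher (log2 fold changes 0.91 ± 0.18 and 2.36 ± 0.31, adjusted p = 0.0477 and 0.0173, edgeR) and 0 were called lower, where 0.759% of all genes were called higher and 0.498% lower. The sum rests mostly on Cyp11a1 (4560.5 ± 1280.5 and 7941 ± 479 CPM) and Hsd3b1. In 5 of the 7 every DKO value lay above every control, as in 5.7% of all genes tested. Star, the cholesterol transporter of steroid synthesis, had near-equal means (2107 ± 729.5 and 2098 ± 1426 CPM). Its DKO libraries were split: DKO 1 and DKO 2, at 821 and 907 CPM, lay below every control. DKO 3 and DKO 4, at 3267 and 3396 CPM, lay above every control. Akr1c18, which breaks down progesterone, was at 50.5 ± 35.4 and 29.4 ± 17.2 CPM. Since the list holds steroid-synthesis genes, its sum does not show which cells made it, or that luteal cells were present 12 h after hCG. The part of any steroid-making cell type in the higher Retsat, Adh1 and Adh7 counts was not tested.

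Adh7 and Adh1 are neighbours on chromosome 3, on the same strand, with 45.6 kb between the end of Adh7 and the start of Adh1. Of the 31 genes that start within 500 kb of the Adh1 start, 13 were tested. The 11 others had log2 fold changes of -0.23 to 0.25, 4 of them above 0, and 0 of the 11 were called by edgeR against 1.26% of all genes, and 0 by DESeq2, by limma-voom with or without quality weights or at an unadjusted p under 0.05. Adh5, the glutathione-dependent formaldehyde dehydrogenase of the same cluster, was at 117 ± 10.3 CPM in controls and 133 ± 9.69 CPM in DKO (0.19 ± 0.10, adjusted p = 0.399, edgeR). The remaining cluster genes had almost no counts: Adh6a was listed at 0 in every library, Adh4 reached at most 0.0574 CPM, and Adh6b at most 0.294 CPM.

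**Figure D3:**
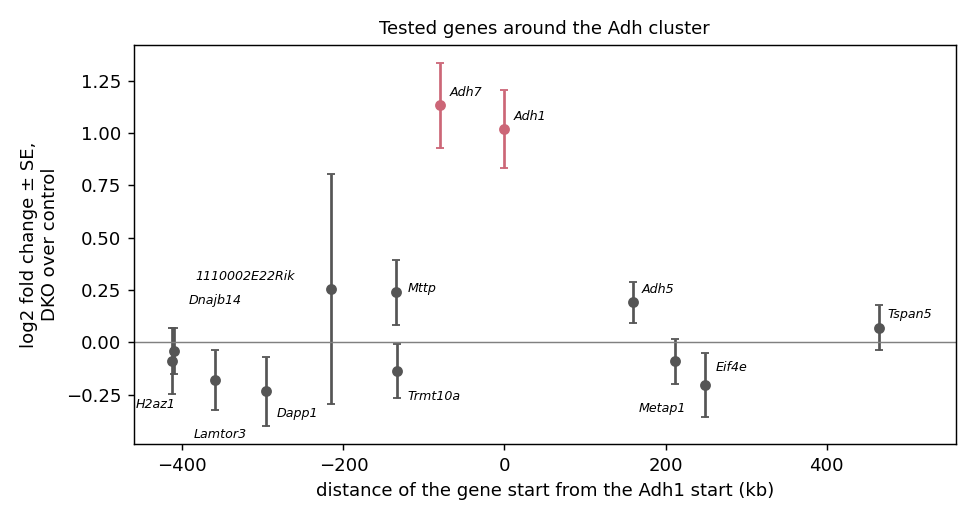
Log2 fold change, DKO over control, with its SE, for the 13 tested genes that start within 500 kb of the Adh1 start, by distance in kb. Adh7 and Adh1 lie above 1, and the other 11 genes lie between -0.23 and 0.25.

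The sequence before the starts of Adh7 and Adh1 is shown because these neighbouring genes were higher together. The RefSeq promoter windows of GRCm38.p6, 250 bases before a transcript start and 50 from it on, matched 7 of the 9 genes. Rdh10 and Crabp2 had no window. The Adh7 start used by RefSeq here lies inside the longer Adh7 interval of the count tables. Both stretches are on the plus strand, end where annotated untranslated sequence begins, and run 5′ to 3′; capitals mark a match to the AP-1 motif TGAGTCA.
Adh7, chr3:138217523-138217759: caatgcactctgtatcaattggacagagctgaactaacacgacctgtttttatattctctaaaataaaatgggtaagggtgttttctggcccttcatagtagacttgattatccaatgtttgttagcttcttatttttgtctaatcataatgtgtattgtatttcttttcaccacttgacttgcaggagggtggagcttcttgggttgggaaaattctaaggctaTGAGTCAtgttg
Adh1, chr3:138277335-138277493: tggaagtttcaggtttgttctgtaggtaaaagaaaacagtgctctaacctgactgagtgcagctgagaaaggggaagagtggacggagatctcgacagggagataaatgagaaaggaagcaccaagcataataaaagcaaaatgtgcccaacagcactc
Retsat also holds this motif, 96 to 102 bases before its start, and the Adh7 match lies 19 to 25 bases before its start. Both are printed with 10 bases on each side, to set the flanks side by side.
Retsat, chr6:72598490-72598516: tgagcaggcgTGAGTCAaaatgcttcg
Adh7, chr3:138217738-138217764: tctaaggctaTGAGTCAtgttgccaaa

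The 7-base AP-1 match was found in 5.2% of all 32851 promoter windows and in 3 of the 13 windows of these genes, the third in 1 Aldh1a1 window on the minus strand. It was not found in the Adh1 window. In all, 7 motifs were searched on both strands, and they were chosen after the values were seen. The nuclear receptor core motif AGGTCA (16.3% of all windows), the longer steroidogenic factor 1 motif CAAGGTCA that contains it (1.56%), and the direct repeats of AGGTCA spaced by 5 bases (0.00913%) and by 1 base (0.0396%), which also contain it, were found in 0 of the 13 windows. The FOXO motif GTAAACA (3.65% of all windows) was found in the Dhrs3 window. TATAAA (13.6%) was found in the Retsat window, 25 to 30 bases before the start, and on the minus strand of the Adh7 window. Such matches describe letters in a window and show no binding.

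Rdh10 (gene ID 98711, chromosome 1, 16105882 to 16132550) encodes the microsomal retinol dehydrogenase that carries out most retinol oxidation in the embryo. It was at 58.3, 115, 148 and 139 CPM in the controls and at 15.3, 25.7, 73.5 and 108 CPM in the DKO. Its values differed between the runs of title numbers as well as between the genotypes. The lowest control was Control 1, the lowest DKO libraries were DKO 1 and DKO 2, and DKO 3 and DKO 4 lay above Control 1. Rdh10 was not called, with a log2 fold change of -1.05 ± 0.60. It was -0.55 ± 0.20 within the 5 higher-numbered libraries, and -0.33 ± 0.36 with DKO 1 and DKO 2 left out. The per-kb ratio of Adh1 to Rdh10 was 2.19 to 5.36 in controls and 7.67 to 33.5 in DKO, without overlap. Adh1 was chosen for its rise and did not overlap by itself, so nothing is read from this ratio.

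Dhrs3 (gene ID 20148, chromosome 4, 144892608 to 144927645) encodes a retinal reductase that returns retinal to retinol and is known to be induced by retinoic acid. It was at 71.5, 66.8, 40.5 and 53.1 CPM in the controls and at 59.7, 65.3, 61.8 and 65.5 CPM in the DKO. The DKO values all lay within the control range. Dhrs3 was not called (log2 fold change 0.12 ± 0.16).

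Aldh1a1 (gene ID 11668, chromosome 19, 20601982 to 20643462) encodes retinaldehyde dehydrogenase 1. It was at 401, 527, 411 and 733 CPM in the controls and at 306, 143, 324 and 323 CPM in the DKO. All DKO values were below all controls, a pattern seen in 3.54% of all genes tested, and DKO 2 was the lowest by far. Aldh1a1 had a log2 fold change of -0.92 ± 0.28, and edgeR's test gave an adjusted p of 0.157. DESeq2 and limma-voom with quality weights called it lower, at adjusted p values of 0.0204 and 0.0341. Within the 5 higher-numbered libraries it was -0.77 ± 0.24.

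Aldh1a2 (gene ID 19378, chromosome 9, 71215789 to 71296243) encodes retinaldehyde dehydrogenase 2, the main source of retinoic acid in the embryo. It was at 67.4, 34.1, 31.5 and 35.0 CPM in the controls and at 60.4, 75.7, 44.9 and 62.0 CPM in the DKO. Control 1 stood apart from the other 3 controls, which lay below every DKO library. The log2 fold change was 0.53 ± 0.26 over all libraries and was not called. Without Control 1 it was 0.87 ± 0.17 and was called, at an adjusted p of 0.0413 in edgeR's test. Control 1 also had the highest sums of oviduct, surface epithelium and mesothelium markers, and DKO 2, with the highest Aldh1a2 among the DKO, had the second highest. The part of these tissues in the Aldh1a2 counts was not tested.

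Within each library the 3 retinaldehyde dehydrogenases that make retinoic acid were set against each other per kb. Aldh1a1 made up 86.0, 93.9, 92.0 and 95.1% of the summed Aldh1a1, Aldh1a2 and Aldh1a3 level in the controls and 84.2, 66.5, 87.9 and 84.5% in the DKO. Aldh1a2 made up 13.0, 5.46, 6.33 and 4.07% in the controls and 14.9, 31.6, 10.9 and 14.6% in the DKO. Aldh1a1 was thus the main form in every library, and Control 1 lay with the DKO libraries in both shares. Aldh1a3 stayed at 0.602 to 1.98% of the sum.

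**Figure D4:**
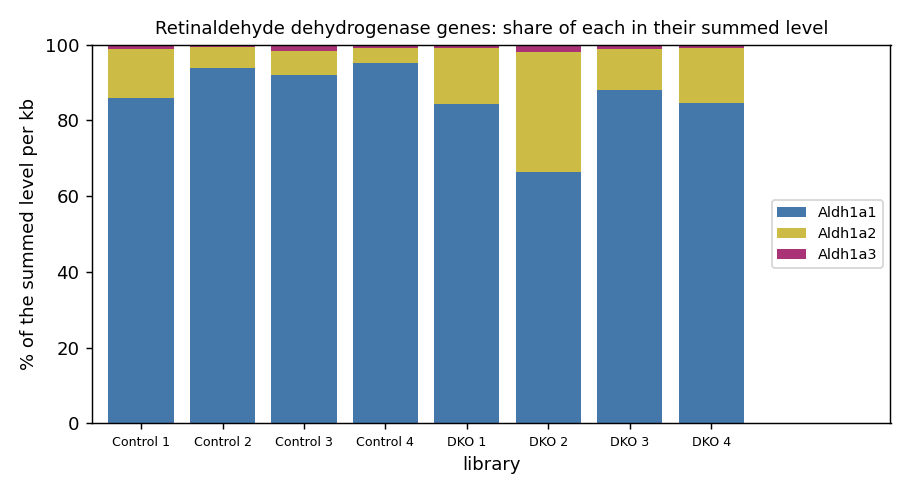
Share of Aldh1a1, Aldh1a2 and Aldh1a3 in their summed level per kilobase, as a percentage, 1 stacked bar per library. Aldh1a1 takes 86.0 to 95.1% in controls and 66.5 to 87.9% in DKO.

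Stra6 (gene ID 20897, chromosome 9, 58063793 to 58154004), the retinol uptake receptor, was at 26.7, 24.4, 12.8 and 15.8 CPM in the controls and at 27.97, 23.6, 18.2 and 15.4 CPM in the DKO. Both genotypes covered the same range, with a log2 fold change of 0.10 ± 0.26. Crabp2 (gene ID 12904, chromosome 3, 87948693 to 87953372), which carries retinoic acid to its receptors, was at 56.1, 35.4, 49.1 and 30.5 CPM in the controls and at 84.5, 34.6, 29.2 and 34.0 CPM in the DKO. DKO 1 alone was above the controls, and the log2 fold change was 0.09 ± 0.35. For Stra6 and Crabp2 the sign of the difference turned within the 5 higher-numbered libraries, to -0.06 and -0.26.

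The rest of the pathway was read from 6 lists of retinoid genes outside the 9, together 70 genes, of which 47 were tested and 7 were listed at 0 in every library. None of the 47 was called by edgeR's quasi-likelihood test, 0 higher and 0 lower, against 1.26% of all genes. At an unadjusted p under 0.05, 6 were higher and 3 lower, where 15.4% of all genes passed in either direction. DESeq2 called 6 higher and 1 lower (6.63% of all genes in either direction), limma-voom 0 (1.26%), and limma-voom with quality weights 4 higher and 1 lower (9.79%). The median log2 fold change of the 47 was -0.03, beside -0.02 over all genes, with 21 above 0 and 26 below.

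**Figure D5:**
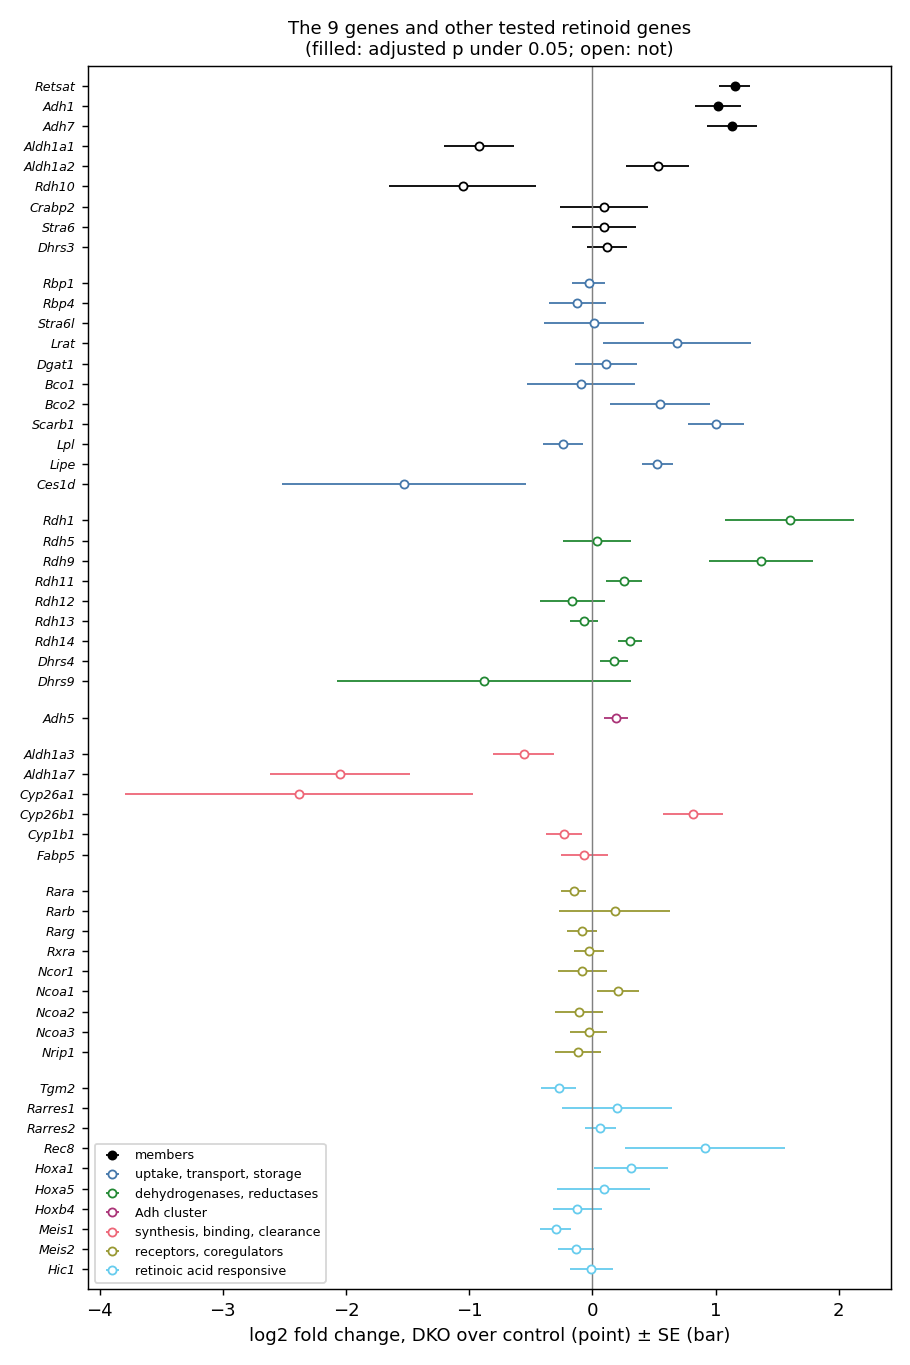
Log2 fold change, DKO over control (points), with its SE (bars), for the 9 genes (black) and 46 other tested retinoid genes coloured by list, a gene of 2 lists shown once. Filled points passed an adjusted p of 0.05: they are Retsat, Adh1 and Adh7, and the 46 others are open.

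Among genes of retinoid uptake, transport and storage, 11 of 17 were tested and edgeR called 0, with a median log2 fold change of 0.02 (2 higher at an unadjusted p under 0.05). Scarb1, the scavenger receptor that takes up lipoprotein cholesterol and carotenoids, had the highest level of the list. It was at 912, 1235, 1778 and 1267 CPM in the controls and at 2104, 2031, 3296 and 2992 CPM in the DKO. The groups did not overlap, and the log2 fold change was 1.01 ± 0.23 with an adjusted p of 0.0686 in edgeR's test. Lipoprotein lipase, Lpl, was at 126 ± 18.7 and 107 ± 23.0 CPM. DESeq2 and limma-voom with quality weights called Scarb1 and Lipe, the hormone-sensitive lipase that can hydrolyse retinyl esters (43.0 ± 7.39 and 62.0 ± 4.58 CPM), higher. These tools called 6.63% and 9.79% of all genes in either direction, and 15.4% passed edgeR's unadjusted p under 0.05.

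Other retinol dehydrogenases and retinal reductases gave 9 tested of 16 and 0 called by edgeR (3 higher at an unadjusted p under 0.05), with 6 above 0 and a median of 0.17. DESeq2 called 3 higher, Rdh1, Rdh9 and Rdh14 (adjusted p = 0.0376, 0.0214 and 0.0313), and the quality weights called 1, Rdh14. Over all genes, DESeq2 called 6.63% and the quality weights 9.79% in either direction, and 15.4% passed edgeR's unadjusted p under 0.05. The most abundant per kb, Rdh11 and Dhrs4, stood at 46.9 ± 5.82 and 29.5 ± 3.27 CPM in controls and at 55.8 ± 10.3 and 33.3 ± 2.73 CPM in DKO (0.25 ± 0.15 and 0.17 ± 0.11). Rdh9 had the smallest adjusted p, 0.152 in edgeR's test. It was at 1.43 to 3.35 CPM in controls, at 2.00 CPM in DKO 1 and at 6.37 to 7.62 CPM in the other DKO libraries. Its value is uncertain, since 68.3% of its 50-base exon stretches also occur in other genes, mostly relatives such as Rdh16f1. For Rdh1 this share was 15.6%, and its levels were low and overlapped, at 0.46 to 1.42 CPM in controls and 0.89 to 4.68 CPM in DKO. By the same measure, 3.06% of Aldh1a1 stretches are shared with Aldh1a7, 0.18% of Adh1 stretches with a pseudogene, and 0 in the other 7 of the 9 genes.

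For synthesis, binding and clearance of retinoic acid, 6 of 9 listed genes were tested, edgeR called 0 (1 higher and 2 lower at an unadjusted p under 0.05), and 5 lay below 0, with a median of -0.40. DESeq2 and the quality weights each called Cyp26b1 higher (adjusted p = 0.0194 and 0.0222) and Aldh1a7 lower (0.00228 and 0.04). The shares over all genes in either direction were 6.63% and 9.79% for these tools, and 15.4% at edgeR's unadjusted p under 0.05. Aldh1a7, a close relative of Aldh1a1, was at 2.71, 12.2, 11.8 and 17.4 CPM in the controls and at 4.24, 1.03, 2.48 and 2.87 CPM in the DKO. Control 1 was within the DKO range and the other controls far above it (log2 fold change -2.05 ± 0.57, adjusted p = 0.129, edgeR). Without Control 1, edgeR called it lower (-2.36 ± 0.39, adjusted p = 0.0289), and likewise in the 5 higher-numbered libraries (0.0177) and without Control 1 and DKO 2 (0.0253). The per-kb ratio of Aldh1a1 to Aldh1a7 was 150 in Control 1, 35.3 to 43.9 in the other controls and 73.2 to 141 in DKO. Cyp26b1, the enzyme that degrades retinoic acid and is itself responsive to it, was at 1.77 to 2.44 CPM in controls and 2.84 to 4.21 CPM in DKO (0.81 ± 0.24, adjusted p = 0.143, edgeR). The groups did not overlap, at levels of a few CPM. Cyp1b1 and the carrier Fabp5, the most abundant per kb, overlapped between the genotypes. They were at 459 ± 34.6 and 46.9 ± 11.5 CPM in controls and 391 ± 73.6 and 44.8 ± 8.97 CPM in DKO. The log2 fold change of Cyp1b1 was -0.23 ± 0.14.

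Receptors and coregulators gave 10 tested of 12 with 0 called by edgeR, DESeq2 or the quality weights and 0 at an unadjusted p under 0.05, 8 below 0, and a median of -0.06. The receptor gene Rxrb was not tested, and its gene ID is annotated on 4 sequences, so its 0 counts do not show that it is silent. Rara, the retinoic acid receptor alpha, was at 39.9 ± 2.75 and 35.9 ± 3.26 CPM (-0.15 ± 0.10), and the corepressor Ncor1 was within 0.1 of 0 on the log2 scale. Retinoic acid responsive genes gave 14 tested of 16, 0 called by edgeR (1 higher and 1 lower at an unadjusted p under 0.05), and a median of 0.03, with 7 above 0 and 7 below. DESeq2 and the quality weights each called 1 higher, Cyp26b1, which is also in the list before (6.63% and 9.79% of all genes in either direction). In this list Rarres2, which encodes chemerin, was at 76.1 ± 10.03 and 79.6 ± 10.6 CPM, and the transglutaminase Tgm2 was at 243.7 ± 37.1 and 201.6 ± 28.2 CPM (0.06 ± 0.13 and -0.27 ± 0.14). Cyp26a1, the most strongly retinoic acid induced enzyme of its family, was at 10.7 CPM in Control 1 and at most 1.21 CPM elsewhere, which is again the library with the highest oviduct sum.

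PPAR factors and their classical targets were read beside Retsat. Of 12 listed, 10 were tested and edgeR called 0, with 6 above 0, 4 below and a median of 0.09. At edgeR's unadjusted p under 0.05, 4 were higher and 2 lower, where 15.4% of all genes passed in either direction. DESeq2 called 1 higher, Cpt1a, and 1 lower, Fabp4 (6.63% of all genes in either direction), limma-voom called 0 (1.26%), and the quality weights called 3 higher and 2 lower (9.79%). Fabp4, the fatty acid binding protein of fat cells and capillary endothelium, was at 47.0, 68.1, 112 and 87.7 CPM in controls and at 8.53, 26.2, 20.4 and 34.3 CPM in DKO. Its DKO values were all below the controls, opposite to Retsat (-1.82 ± 0.42, adjusted p = 0.083, edgeR). Pparg itself was at 38.6 to 97.3 CPM in controls and 35.2 to 68.3 CPM in DKO.

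Genes with profiles most like Retsat, Adh1 and Adh7 were found by the root mean square (RMS) difference of centred log2 CPM over the 8 libraries, among 11299 genes whose mean reached 5 CPM. As the 3 were chosen for their rise, their nearest genes share that contrast. Nearest to Retsat were Sbk1 (RMS 0.07), Smpdl3b (0.11), Slc12a7 (0.15) and Mmd2 (0.16), against a median of 0.62 over all genes. Sbk1 stood at 85.6 ± 6.03 CPM in controls and 187 ± 29.2 CPM in DKO. Nearest to Adh1 were the fatty acid desaturase gene Fads1 (0.11), the pyruvate carboxylase gene Pcx (0.12), Tnfrsf10b (0.14) and Hacd3 (0.16), with a median of 0.59. Fads1 stood at 291 ± 27.5 and 527 ± 124 CPM. Nearest to Adh7 were Chst1 (0.17), Pcdh12 (0.18), Gfra2 (0.19) and Scarb1 (0.20), with a median of 0.66. Adh1 and Adh7 were 0.26 apart, which placed Adh7 at rank 34 from Adh1. Retsat lay at 0.37 from Adh1 and 0.35 from Adh7.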

How the data were processed

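RNA from 8 whole ovaries was sequenced with a stranded poly(A) kit, per the labels' protocols. The authors deposited raw read counts, 1 table for each library, which featureCounts (Subread 1.5.2) summed by gene ID over exons of RefSeq GRCm38.p5 in reverse-stranded mode, per the file headers. STAR 2.4.2a, Trimmomatic 0.33 and 0.36, edgeR 3.12.0, bcl2fastq 2.17.1.14 and the build GRCm38.p3 come from the submitters' processing notes. A RefSeq table of GRCm38.p6 gave symbols for 40290 of 41591 IDs (96.9%). Genes with near-identical copies are uncertain.

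Groups and replicate numbers came from the sample descriptions. Nothing states separate litters, so p-values measure the spread between these ovaries. Replicate pairs differed beyond sampling noise (reduced chi-square 25.1 to 143), so all 8 counted. In R 4.3.3 with edgeR 4.0.16, counts were filtered by filterByExpr (16870 genes kept), scaled by TMM and tested with the robust quasi-likelihood F-test, two-sided, with no covariate, Benjamini-Hochberg adjusted over all genes at 0.05. The SE is the log2 fold change divided by the square root of F. Tables were made in Python 3.11.15. On simulated data of 16594 genes for 4 against 4 libraries, the recovered share was 22.4% at a 1.5-fold change, 82.1% at 2-fold and 100% at 4-fold, with 6.85% false calls.

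The 9 genes and all lists were chosen with earlier results of these data known. Named genes were the 9, and from each pathway list any called member, the 2 with the highest control level per kb and the one with the smallest adjusted p. To these were added the 4 nearest profiles of Retsat, Adh1 and Adh7 (a mean of at least 5 CPM, prior count 2) and the most abundant and called markers. Lipe, Rdh1, Rdh14, Cpt1a, Cyp26a1, Star, Akr1c18, Adh4, Adh6a, Pparg, Adipoq, Tff2, Gkn1 and the globin genes were named after their values were seen. Of the genes this rule names, 2 are not reported here. Alternatives were 3 scalings, 2 filters, DESeq2 1.42.0, limma-voom (limma 3.58.1) with and without quality weights, non-robust dispersions, the replicate number or the run of title numbers as a block, the higher run alone (title numbers 249 to 263, against 167 to 202 in the lower run), and leaving out each library. After seeing the data, 2 more fits were added, leaving out either DKO 2 and Control 1 or DKO 2 and DKO 1.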

Additional observations from a re-analysis of the deposited data

Results flagged for a closer look

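In 111 groups of 4 libraries with a mean of at least 1 CPM, 12 had 1 library farther from the rest than Dixon's 95% criterion allows. Chance alone marks about 1 group in 20. Among the 9 retinoid genes, DKO 4 was low for Retsat (29.96 CPM against 38.2 to 39.8 in the other DKO), DKO 2 was low for Aldh1a1 (143 against 306 to 324), Control 1 was high for Aldh1a2 (67.4 against 31.5 to 35.0), and DKO 1 was high for Crabp2 (84.5 against 29.2 to 34.6). Control 1 was also high for the oviduct glycoprotein gene Ovgp1 (1147 CPM against 4.04 to 23.8), the epithelial keratin gene Krt19 (178 against 19.4 to 22.3) and Tgm2 (299 against 224 to 226). DKO 2 was high for Ovgp1 (724 CPM against 2.51 to 2.90), Krt19 (105 against 29.6 to 40.9) and the fat and muscle gene Car3 (34.2 against 7.44 to 10.8). Control 3 was high for the steroid-synthesis gene Cyp11a1 (6472 CPM against 3759 to 4067) and DKO 4 for Igf1r (247 against 199.6 to 204.9).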

How the results depend on the processing

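Retsat was called in 21 of 22 alternatives, and Adh1 and Adh7 in 16 each, with log2 fold changes of 1.06 to 1.24, 0.89 to 1.35 and 1.03 to 1.36. Leaving out 1 library gave 0 to 3 of these calls, each higher in DKO. Without Control 1 and DKO 2 only Retsat was called (1 of 3), with adjusted p values in edgeR of 0.0566 for Adh1 and 0.0883 for Adh7. Aldh1a1, Aldh1a2 and Rdh10 kept their sign in 22 of 22, Dhrs3 in 20, and Crabp2 and Stra6 in 15 each. DESeq2 and the quality weights each called 1 of the 9 genes lower. Over all genes the 212 calls became 1118 with DESeq2, 1651 with quality weights, 743 with the replicate block, 526 with the run of title numbers as a block, 97 without Control 1 and DKO 2, 64 without DKO 1 and DKO 2, and 2 to 506 without 1 library each, the lowest without Control 2. Pathway genes outside the 9 gave 0 calls in the main analysis, 1 with no filter, 7 with DESeq2, 5 with quality weights, 2 with the replicate block, 1 with the run block, 1 in the 5 higher-numbered libraries, 1 without Control 1 and DKO 2, and 0 to 2 without 1 library. The cause was not tested. Replicate numbers were not taken as pairs: deviations correlated at 0.156, -0.359, 0.312 and 0.468, and 5 of 8 libraries were most like their own number. Signs of genes near 0 turned. Fabp5 became 0.047 with quality weights, 0.041 with the run block, 0.085 in the 5 higher-numbered libraries, 0.180 without DKO 1 and DKO 2, and -0.166 to 0.117 without 1 library. Ncor1 became 0.00 without Control 1 and DKO 2 and -0.256 to 0.057 without 1 library. The common biological coefficient of variation, a measure of the spread between ovaries, was 0.281.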

Other observations

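The alpha-globin gene Hba-a1 was at 73.6 to 248 CPM in all 8 libraries. Rxrb, Ppard and Angptl4 were listed at 0 in every library. Their gene IDs are annotated on 4, 2 and 4 sequences, so these 0 values do not show that the genes are silent.

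The liver marker list held 1 gene called by edgeR among 2 tested, where 1.26% of all genes were called. Apoa1, the main protein of high-density lipoprotein, the lipoprotein that SCARB1 binds, was lower in DKO (70.6 ± 8.95 to 40.4 ± 7.28 CPM, log2 fold change -0.81 ± 0.15, adjusted p = 0.0375, edgeR), and Alb was at most 0.0848 CPM in any library.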
